A study of Mus musculus with 11 samples.

Results

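Retinal gene expression of Brn3b-Kir2.1 mice at postnatal day 8 (P8) was set against that of the wild-type group of the same age, gene by gene. The comparison took the 6 P8 libraries, by their titles, out of the 11 in the series: 3 Kir2.1 libraries and 3 wild-type libraries. Of 47069 genes with a row in the count tables, 18188 had enough counts to be tested with all 6 libraries. Both groups were labelled C57BL/6. The Kir2.1 mice carry human Kir2.1 with eYFP, a yellow fluorescent protein, joined to its end. A CAG promoter drives this transgene once Cre, here made under Brn3b, has removed a floxed STOP cassette, and the line was made by injecting the construct into oocytes. On 3 points the labels disagree. They state P8 as the age but P11 in the extraction protocol, the genotype field calls the controls wild type and the protocol names Brn3b-cre mice, and the source field names retinal ganglion cells although the protocol dissociates whole retinas with no sorting step. The sample fields are followed below, and whether the controls carried Cre cannot be told from the labels. Nothing states that replicates came from separate animals, so the p-values measure the spread between these libraries, which may be technical.

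Kir2.1 is an inwardly rectifying potassium channel that holds a neuron near its resting potential and lowers its firing when it is overexpressed. Brn3b, encoded by Pou4f2, is a transcription factor of retinal ganglion cells, the output neurons whose axons form the optic nerve. In the postnatal mouse retina, ganglion cells and most amacrine interneurons are already born, waves of activity pass between them, and rods and bipolar cells are still being added and are switching on their phototransduction and synaptic genes. In bulk RNA such as this, fewer cells of a type and less RNA per cell cannot be told apart.

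The labelled tissue was checked against marker genes. Every member of the lists for rods (33 genes), cones (15), bipolar cells (24), amacrine cells (31), Mueller glia (20), vascular cells (23) and microglia (18) had enough counts to be tested in libraries whose source field names ganglion cells. Levels below are CPM, counts scaled by TMM to a common library size, in the order wild-type replicates 1, 2 and 3, then Kir2.1 replicates 1, 2 and 3. Depth ranged from 9362215 gene counts in Kir2.1 replicate 2 to 12322618 in Kir2.1 replicate 1. Between 22609 and 24279 genes were detected in each of 5 libraries and 31325 in Kir2.1 replicate 2, where 4481 genes had counts in no other P8 library and made up 0.105% of its gene counts.

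Wild-type replicate 3 lay apart from wild-type replicates 1 and 2 and among the Kir2.1 libraries. Over the 18188 genes, the median absolute difference in log2 CPM was 0.459 and 0.365 between replicate 3 and wild-type replicates 1 and 2, and 0.242, 0.259 and 0.253 between replicate 3 and the 3 Kir2.1 libraries. The Kir2.1 libraries differed from each other by 0.233 to 0.284, and wild-type replicates 1 and 2 by 0.318. Sex-linked genes also set the libraries apart. Xist, expressed from the inactive X of females, was at 2857, 3089 and 1232 CPM in wild type and at 1151, 2485 and 494 CPM in Kir2.1. Kdm5d, a Y-linked demethylase, was at 14.4, 0.0851 and 53.5 CPM in wild type and at 37.8, 12.9 and 64.5 CPM in Kir2.1. Wild-type replicates 1 and 2 and Kir2.1 replicate 2 therefore had more Xist and less Kdm5d than the other libraries. Wild-type replicate 3 resembled Kir2.1 replicates 1 and 3. Kdm5d was nearly absent in wild-type replicate 2 alone, and every other library held both RNAs. Whether the label of wild-type replicate 3 is right cannot be told from these files, and every value below depends on it. Tests were run with all 3 wild-type libraries (3 against 3) and with wild-type replicate 3 shown but left out (3 against 2). It was left out because its values lie apart from the other controls, so the p-values and calls 3 against 2 are conditioned on that observation.

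Kcnj2, the mouse gene of Kir2.1 (ENSMUSG00000041695; chromosome 11, 111066164 to 111076821, plus strand, GRCm38), was at 15.1, 17.2 and 3.74 CPM in wild type and at 17.1, 4.91 and 11.3 CPM in Kir2.1. The groups overlapped, and the lowest value belonged to wild-type replicate 3. Its log2 fold change was -0.11 (SE 0.56, adjusted p = 0.977) 3 against 3 and -0.53 (SE 0.48, adjusted p = 0.593) 3 against 2. The transgene is a human cDNA, so these counts do not check the genotype labels. Pou4f2 (ENSMUSG00000031688; chromosome 8, 78433010 to 78436645, minus strand), the gene of Brn3b, was at 5.96, 6.38 and 4.31 CPM in wild type and at 4.56, 2.82 and 2.68 CPM in Kir2.1. Only Kir2.1 replicate 1 reached into the wild-type range. The log2 fold change of Pou4f2 was -0.72 (SE 0.39, adjusted p = 0.699) 3 against 3 and -0.87 (SE 0.42, adjusted p = 0.275) 3 against 2.

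With all 6 libraries, no gene passed the test between the genotypes. edgeR's quasi-likelihood test with Benjamini-Hochberg adjustment called 0 of 18188 genes (0%), with a smallest adjusted p of 0.699. An unadjusted p under 0.05 was reached by 525 genes higher in Kir2.1 (2.89%) and 715 lower (3.93%), 1240 in all. The 3 Kir2.1 and the 3 wild-type values did not overlap in 1001 genes higher in Kir2.1 (5.5%) and 930 lower (5.11%), 10.6% of genes in either direction. limma voom with sample weights also called 0 genes, and DESeq2 on the P8 libraries alone called 3. In simulated counts for 17641 genes with the same library numbers, the changed genes averaged at least 5 CPM. The edgeR test recovered 56 of 100 genes changed 2-fold and 95 of 100 changed 4-fold, with 8 other genes called. No simulated wild-type library lay among the Kir2.1 libraries, so these rates do not give the power in the real counts.

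The 3 genes that DESeq2 called were transcripts outside the protein-coding set, and they are named here after their values were seen. The processed pseudogene Gm15459 (ENSMUSG00000100801; chromosome 5, 5781615 to 5783555) was at 2.20, 1.28 and 2.52 CPM in wild type and at 12.2, 17.9 and 14.7 CPM in Kir2.1. All 3 wild-type libraries, replicate 3 included, stood below all 3 Kir2.1 libraries, and DESeq2 gave a log2 fold change of 2.89 (SE 0.37, adjusted p = 1.48e-10). At P4 Gm15459 was at 2.31 and 1.10 CPM in wild type and at 8.84, 1.92 and 11.5 CPM in Kir2.1, so that 2 of 3 Kir2.1 libraries were high there too. AA474408 (chromosome 7, 110057987 to 110061325), a transcript of unknown coding status, was at 90.8, 55.5 and 59.4 CPM in wild type and at 25.2, 17.6 and 17.0 CPM in Kir2.1. Its log2 fold change by DESeq2 was -1.79 (SE 0.26, adjusted p = 6.98e-08), again with wild-type replicate 3 beside the other wild-type libraries. Rny3 (chromosome 6, 47781624 to 47781725), a small RNA of the Ro particle, was at 93.6, 44.1 and 41.7 CPM in wild type and at 12.01, 27.2 and 16.1 CPM in Kir2.1, a DESeq2 log2 fold change of -1.71 (SE 0.35, adjusted p = 0.0134). edgeR gave these 3 genes the same directions without calling them 3 against 3. Gm15459, a processed pseudogene, and Rny3, a short repeated RNA, share sequence with their copies, so their counts are uncertain.

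None of the protein-coding genes named next, which averaged 5 CPM or more and did not overlap 3 against 3, passed adjustment in that comparison. Bmf, a pro-apoptotic BH3-only protein, was at 3.67, 6.04 and 12.5 CPM in wild type and at 16.6, 14.7 and 15.8 CPM in Kir2.1. Cyb5r1 and Dcdc2a had wild-type values of 2.75 to 11.6 and 1.74 to 9.76 CPM, and Kir2.1 values of 12.7 to 15.0 and 11.1 to 14.1 CPM. In these genes wild-type replicate 1 was the lowest library. Lower in Kir2.1 were Rac3, a small GTPase of neurons, at 17.1, 22.7 and 10.7 CPM against 7.87, 8.56 and 8.21 CPM, and Nsun7 at 9.25, 8.00 and 6.92 CPM against 3.40, 5.22 and 3.21 CPM. The 3-against-3 log2 fold changes were 1.08 (SE 0.35) for Bmf, -1.04 (SE 0.31) for Rac3 and -1.03 (SE 0.29) for Nsun7, each with an adjusted p of 0.699. Of the genes named here, Bmf alone was called 3 against 2 (log2 fold change 1.69, SE 0.27, adjusted p = 0.0321).

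With wild-type replicate 3 kept out, 219 of 18032 genes differed (1.21%), 97 of them higher in Kir2.1 (0.538%) and 122 lower (0.677%). The smallest adjusted p was 0.00797, and the unadjusted p was under 0.05 in 1740 genes higher in Kir2.1 (9.65%) and 1838 lower (10.2%). Those that rose included the transcription factors Insm1 and Neurod1 and the growth factor gene Nrtn. Those that fell included the channel and receptor genes Kcnip3, Scn3a, Gabrb2 and Grin2b. In edgeR these calls rested on the P4 libraries in the fit and on single P8 libraries. edgeR on the P8 libraries alone called 0 genes (smallest adjusted p 0.0573). It also called 0 without Kir2.1 replicate 1 (0.0749) or Kir2.1 replicate 2 (0.0746), and 1 gene, Gm14204, without Kir2.1 replicate 3. Leaving out wild-type replicate 1 or 2 left 1 library in that group, so those calls are not given. DESeq2, run on the P8 libraries alone with its own filter, called 1052 genes, 216 of them among the 219. limma voom called 545, of which 214 were among the 219.

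Susd3, a small membrane protein, rose from 2.93 and 4.68 CPM in wild-type replicates 1 and 2 to 17.9, 14.3 and 21.4 CPM in Kir2.1 (log2 fold change 2.23, SE 0.30, adjusted p = 0.0261). Wild-type replicate 3 was at 23.1 CPM, above all 3 Kir2.1 libraries. Plpp2, a lipid phosphate phosphatase, rose from 2.29 and 3.66 CPM to 14.0, 12.1 and 18.8 CPM (log2 fold change 2.33, SE 0.38, adjusted p = 0.0321), with wild-type replicate 3 at 20.0 CPM. Nrtn, the growth factor neurturin, was at 2.20 and 6.21 CPM against 13.4, 14.7 and 19.7 CPM, and at 21.8 CPM in wild-type replicate 3. In all of these the library kept out stood above the Kir2.1 range. With it in the test, the log2 fold changes of Susd3, Plpp2 and Nrtn were 0.80 (SE 0.56), 0.79 (SE 0.60) and 0.66 (SE 0.57), and none was called.

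Insm1, a zinc-finger factor of newly born neurons and endocrine cells (ENSMUSG00000068154; chromosome 2, 146221921 to 146225020), stood at 37.1 CPM in wild-type replicate 1 and 85.2 CPM in replicate 2, against 190.3, 184 and 178 CPM in the Kir2.1 libraries, a log2 fold change of 1.59 (SE 0.26, adjusted p = 0.0321). Wild-type replicate 3 lay inside the Kir2.1 range at 186 CPM. Neurod1, a basic helix-loop-helix factor of photoreceptors and amacrine cells (ENSMUSG00000034701; chromosome 2, 79452521 to 79456751), rose from 176 and 239 CPM to 471, 422 and 402 CPM (log2 fold change 1.06, SE 0.15, adjusted p = 0.0261), with wild-type replicate 3 at 478 CPM. Neurod1 overlaps the gene Cerkl on the same strand, so the 2 may share counts. Trib1, a pseudokinase, and Amer2, a Wnt pathway regulator, had log2 fold changes of 0.96 and 1.07. Htra1, a secreted serine protease, Ttyh2, a membrane protein of the tweety family, B4galt1, a galactosyltransferase, and Kank1, a cytoskeletal adaptor, rose by 1.46, 1.57, 1.58 and 1.59 on the log2 scale. With all 3 wild-type libraries the folds were 0.84 for Insm1 and 0.54 for Neurod1, and from 0.505 (Trib1) to 0.955 (B4galt1) for the other 6 genes. In each of those 6 wild-type replicate 3 was nearer to the Kir2.1 mean than to the mean of wild-type replicates 1 and 2.

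Kcnip3, which encodes the calcium-binding Kv channel partner calsenilin, also known as DREAM (ENSMUSG00000079056; chromosome 2, 127456498 to 127522094), fell from 82.2 and 74.1 CPM to 36.6, 29.2 and 38.6 CPM (log2 fold change -1.16, SE 0.14, adjusted p = 0.0188). Wild-type replicate 3 was lower still, at 29.0 CPM. Shisa7, an auxiliary protein of GABA-A and AMPA receptors (ENSMUSG00000053550; chromosome 7, 4825552 to 4844696), was at 70.4 and 70.0 CPM against 35.1, 32.9 and 34.9 CPM (log2 fold change -1.03, SE 0.12, adjusted p = 0.0188), with wild-type replicate 3 at 33.0 CPM. Trhde, a peptidase that degrades thyrotropin-releasing hormone, Vav3, a guanine nucleotide exchange factor, and Tmem179 also fell, and wild-type replicate 3 was at 8.46, 17.4 and 12.9 CPM where the lowest Kir2.1 value was 10.02, 19.0 and 12.2 CPM. Asic1, an acid-sensing channel, Wipf3, Dbndd1, Hectd2 and Rd3l fell by 1.19, 1.30, 1.35, 0.88 and 0.91 on the log2 scale. Hectd2 and Wipf3 overlap other genes. With all 3 wild-type libraries the folds were -0.83 for Kcnip3 and -0.75 for Shisa7, and from -1.09 (Dbndd1) to -0.64 (Hectd2) for the other 8 genes.

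In some of the genes that fell, wild-type replicate 3 stayed above every Kir2.1 library. Gabrb2, the beta-2 subunit of GABA-A receptors (ENSMUSG00000007653; chromosome 11, 42419757 to 42629028), was at 39.7, 42.5 and 27.7 CPM in wild type and at 20.2, 23.5 and 17.6 CPM in Kir2.1. Tac1, the precursor of substance P and an amacrine neuropeptide, was at 13.1, 12.3 and 6.35 CPM against 5.55, 5.32 and 4.46 CPM. Cgref1, a secreted calcium-binding protein, was at 14.6, 17.4 and 9.36 CPM against 7.12, 7.72 and 6.34 CPM, and Fam43b, which overlaps an antisense transcript, at 11.3, 10.04 and 5.70 CPM against 4.64, 3.65 and 4.29 CPM. In each, wild-type replicate 3 lay between the other wild-type libraries and the Kir2.1 libraries. Against wild-type replicates 1 and 2 the log2 fold changes were -1.01 (SE 0.15), -1.31 (SE 0.24), -1.18 (SE 0.22) and -1.34 (SE 0.27) in the order given, and with all 3 wild-type libraries they were -0.84, -1.04, -0.96 and -1.10.

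**Figure D1:**
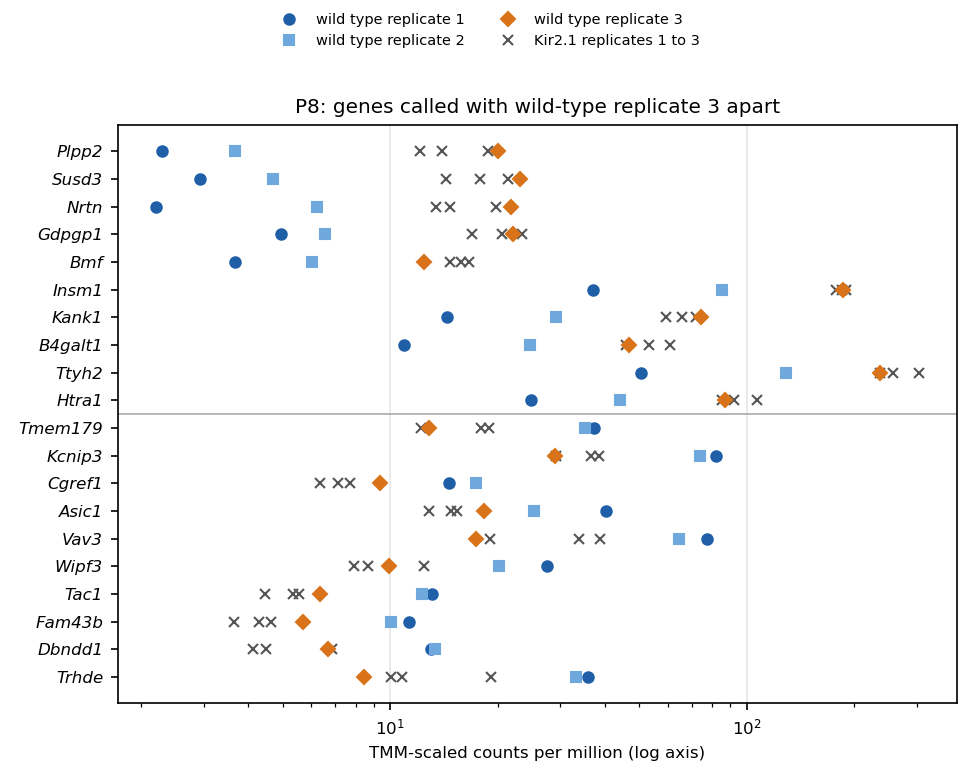
CPM (log axis) of the 10 genes with the highest and the 10 with the lowest fold change among protein-coding genes with a mean of at least 5 CPM called 3 against 2, above and below the grey line, one row per gene. Circles and squares are wild-type replicates 1 and 2, diamonds wild-type replicate 3 and crosses the 3 Kir2.1 libraries. In these 20 genes the diamonds lie among or near the crosses, as for Insm1 at 186 CPM, and not with the circles and squares.

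Of the 219 genes called 3 against 2, all had the same direction 3 against 3 and 218 a smaller fold there, with a median size on the log2 scale of 0.579 against 0.91. Over all 219 genes, wild-type replicate 3 was nearer to the Kir2.1 mean in 216 and nearer to wild-type replicates 1 and 2 in 3. Placed on a scale with the mean of wild-type replicates 1 and 2 at 0 and the Kir2.1 mean at 1, its median position was 1.02, with quartiles of 0.873 and 1.182. It lay within the range of the 3 Kir2.1 libraries in 110 genes and beyond their mean in 118. All 219 genes separated Kir2.1 from wild-type replicates 1 and 2, and 54 separated it from all 3 wild-type libraries. Wild-type replicates 1 and 2 and the Kir2.1 libraries chose these genes, so the counts describe where replicate 3 falls and test nothing. The 3 genes in which it stayed with its own group were Gm15459, Ripply3 and Dnajb5, named here after their values were seen. Ripply3, a transcriptional corepressor, was at 0 in all 3 wild-type libraries and at 0.994, 1.67 and 0.803 CPM in Kir2.1. These values are near the floor. Between the P8 groups, Ripply3 could pass the count filter only through Kir2.1, so it is no independent sign of a difference.

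**Figure D2:**
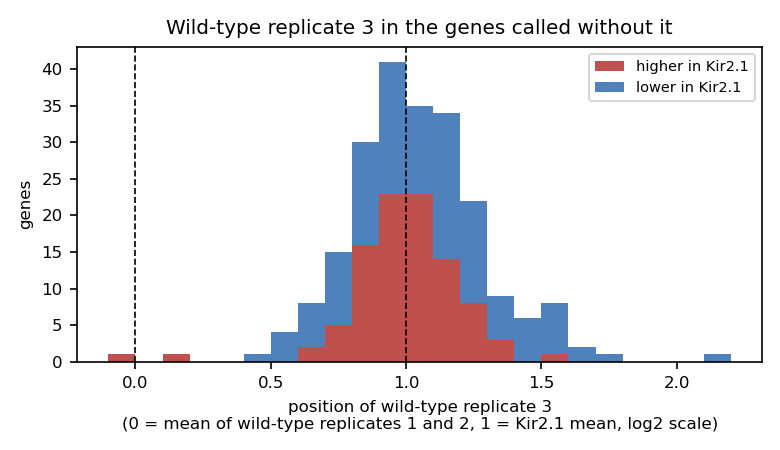
Position of wild-type replicate 3 (x axis, log2 scale, 0 for the mean of wild-type replicates 1 and 2 and 1 for the Kir2.1 mean) in the 219 genes called without it; the y axis counts genes, coloured by direction. Most genes lie around 1, with a median of 1.02, and 3 lie nearer to 0.

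Marker lists placed this difference among cell types. Rod genes were lowest in wild-type replicates 1 and 2. Their summed level was 3236, 9174 and 17295 CPM in wild type and 17070, 17329 and 17490 CPM in Kir2.1. The Kir2.1 libraries lay within a narrow band, wild-type replicate 3 was inside it, and wild-type replicates 1 and 2 were below it and far from each other. With replicate 3 apart, 31 of 33 rod genes had a higher estimate in Kir2.1 and the unadjusted p was under 0.05 in 28 of them, against 9.65% of all genes. The median log2 fold change over the list was 1.55, against 0.018 over all genes tested, and 1 gene was called higher, against 0.538% of all genes. With all 3 wild-type libraries the median was 0.84, and 6 of 33 did not overlap and were higher, against 5.5% of all genes. There 1 of 33 had an unadjusted p under 0.05, near the share of all genes (2.89%). With a library left out or other settings, no filter apart, the 3-against-2 rod median ran from 0.86 to 2.65. The 3-against-3 median ran from 0.39 to 1.55.

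The called rod gene was Gnb1, the transducin beta subunit of rods, which many other cells also express (ENSMUSG00000029064; chromosome 4, 155491361 to 155559269). It was at 752, 994 and 1447 CPM in wild type and at 1619, 1435 and 1642 CPM in Kir2.1, with a log2 fold change of 0.84 (SE 0.14, adjusted p = 0.0351) 3 against 2 and 0.56 (SE 0.19) 3 against 3. Nrl, the leucine zipper factor that specifies rods, was at 47.3, 159 and 455 CPM against 419, 409 and 414 CPM, highest in wild-type replicate 3. Samd7, a transcriptional repressor in rods, was at 26.2, 91.0 and 324 CPM against 233, 255 and 303 CPM (log2 fold change 2.17, SE 0.48, adjusted p = 0.0513, 3 against 2 and 0.84, SE 0.63, 3 against 3). Rbp3, the retinoid-binding protein of the matrix around photoreceptors, was at 418, 1106 and 1614 CPM against 1852, 1885 and 1809 CPM and did not overlap. Crx, the homeobox factor of photoreceptors, was at 181, 527 and 962 CPM against 914, 1006 and 960 CPM. Nrl and Crx are given as defining markers, and wild-type replicate 1 was lowest in all 5 genes.

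Promoters of the rod genes were read because so many members shared this pattern. RefSeq (GRCm38.p6) promoters, from 250 bases before to 50 after the start site, were at hand for 24 of the 33 rod genes. The letters TAATCC, the core bound by Crx and Otx2, or their reverse complement stood in 12 of the 24 (50.0%), against 1935 of all 27025 promoters of that length (7.16%) and 3 of 25 amacrine promoters. Another 4 motifs were searched on both strands. CAGATG stood in 3 of the 24 rod promoters against 17.2% of all promoters, and TGCTGA in 5 against 19.1%. CCGGAAG stood in 4 of the 24 against 9.12%, and CACGTG in 0 against 7.24%. Samd7 and Rbp3, which have a match, and Gnb1, the called gene, which has none, are shown with the match in capitals as the reverse complement GGATTA. They lie at chr3:30746043-30746342, chr14:33953753-33954052 and chr4:155491111-155491410, all on the plus strand.
Samd7: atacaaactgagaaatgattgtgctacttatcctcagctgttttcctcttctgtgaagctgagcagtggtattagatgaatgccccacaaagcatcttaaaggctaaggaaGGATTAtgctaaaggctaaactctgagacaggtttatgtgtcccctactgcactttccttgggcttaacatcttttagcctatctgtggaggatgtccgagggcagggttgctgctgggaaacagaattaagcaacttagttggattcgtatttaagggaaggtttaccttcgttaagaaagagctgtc
Rbp3: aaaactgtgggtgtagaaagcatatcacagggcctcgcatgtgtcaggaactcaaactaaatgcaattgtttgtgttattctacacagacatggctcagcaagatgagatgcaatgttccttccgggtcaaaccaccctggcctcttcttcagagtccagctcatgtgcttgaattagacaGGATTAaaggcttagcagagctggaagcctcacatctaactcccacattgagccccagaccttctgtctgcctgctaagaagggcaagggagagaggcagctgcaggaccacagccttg
Gnb1: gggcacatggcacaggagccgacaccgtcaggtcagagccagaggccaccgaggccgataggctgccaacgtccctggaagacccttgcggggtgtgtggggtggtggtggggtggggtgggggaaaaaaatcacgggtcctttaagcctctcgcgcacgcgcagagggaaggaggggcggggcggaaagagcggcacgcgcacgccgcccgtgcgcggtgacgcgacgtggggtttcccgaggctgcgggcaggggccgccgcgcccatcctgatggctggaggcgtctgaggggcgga
The first base of the match lies 139 bases before the start site in Samd7 and 69 bases before it in Rbp3. The 12 rod genes with a match had a median log2 fold change of 1.43 3 against 2, and the 12 without one of 1.68. A match describes letters and is no measure of binding.

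Bipolar genes were also lowest in wild-type replicates 1 and 2, with a smaller median difference. Their sum was 1273, 2039 and 3370 CPM in wild type and 2550, 2831 and 2234 CPM in Kir2.1, highest in wild-type replicate 3. Otx2, the homeobox factor of photoreceptors and bipolar cells, was at 95.5, 207 and 431 CPM against 362, 406 and 296 CPM. None of the 24 bipolar genes was called, and the list median was 0.54 3 against 2 and 0.14 3 against 3. The first became 0.15 without wild-type replicate 1 and 0.95 without wild-type replicate 2. Ribbon synapse genes had medians of 0.53 and 0.33. Among them Egflam, the pikachurin of photoreceptor synapses, was at 36.4, 100.2 and 159 CPM against 167, 215 and 174 CPM, and did not overlap. Dmd, dystrophin, was at 269, 813 and 1220 CPM against 988, 1595 and 1224 CPM. Cone genes, by contrast, had medians of -0.08 and 0.17, and their sums overlapped, with 970 to 1375 CPM in wild type and 1133 to 1339 CPM in Kir2.1.

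Amacrine genes lay on the other side. Their sum was 5607, 4124 and 2302 CPM in wild type and 2989, 1923 and 3094 CPM in Kir2.1, so that wild-type replicate 3 again stood within the Kir2.1 range. All 31 had a lower estimate in Kir2.1 3 against 3, with a median of -0.55. That median ran from -0.81 to -0.24 with a library left out or other settings, no filter apart. Of the 31, 2 did not overlap, near the 5.11% of all genes that were lower with no overlap, and 6 had an unadjusted p under 0.05, against 3.93%. With replicate 3 apart, 30 of 31 were lower, the median was -0.81, 15 had an unadjusted p under 0.05 in that direction against 10.2% of all genes, and 3 were called, against 0.677%. Pax6, the paired homeobox factor kept by amacrine and ganglion cells (chromosome 2, 105668900 to 105697364), was at 1034, 859 and 585 CPM in wild type and at 568, 472 and 645 CPM in Kir2.1 (log2 fold change -0.75, SE 0.13, adjusted p = 0.0364). Tfap2a, an AP-2 factor of amacrine cells (chromosome 13, 40715302 to 40738376), was at 291, 231 and 117 CPM against 147, 91.2 and 161 CPM (log2 fold change -0.97, SE 0.20, adjusted p = 0.0441). The third was Tac1. Tfap2b, the most abundant gene of the list in CPM, was at 1922, 1174 and 578 CPM against 863, 468 and 909 CPM, with a log2 fold change of -1.05 (SE 0.26, adjusted p = 0.0612). Chat, the enzyme that makes acetylcholine in starburst amacrine cells, was at 19.1, 18.4 and 0.163 CPM in wild type and at 16.7, 3.76 and 11.7 CPM in Kir2.1, lowest in wild-type replicate 3 and next lowest in Kir2.1 replicate 2.

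Ganglion cell genes, the cells that carry the transgene by design, had a sum of 1197, 1355 and 862 CPM in wild type and of 1117, 919 and 1017 CPM in Kir2.1. None of 31 tested genes was called. In both comparisons 25 of 31 had a lower estimate, with medians of -0.19 3 against 3 and -0.59 with replicate 3 apart, where 7 lower and 3 higher genes had an unadjusted p under 0.05. Over all genes these shares were 10.2% lower and 9.65% higher, so the higher members were near the background. With a library left out or other settings, no filter apart, the 3-against-3 median ran from -0.59 to -0.08. The 3-against-2 median ran from -0.67 to -0.32. Elavl4, a neuronal RNA-binding protein, was at 108, 76.1 and 51.0 CPM against 48.2, 36.8 and 56.6 CPM. L1cam, an axonal adhesion molecule, was at 145, 142 and 76.6 CPM against 89.1, 78.6 and 88.0 CPM. Their log2 fold changes 3 against 2 were -0.96 (SE 0.25, adjusted p = 0.0682) and -0.75 (SE 0.18, adjusted p = 0.0596). The most abundant members in CPM, Jam2 and Satb1, did not share this fall. Jam2 was at 35.5, 125.2 and 169.8 CPM against 163.7, 208.6 and 175.9 CPM (log2 fold change 1.184, SE 0.375, adjusted p = 0.1085, 3 against 2). Satb1 was at 128, 101.5 and 105.8 CPM against 105.9, 112.7 and 106.6 CPM (log2 fold change -0.082, SE 0.121). The 10 genes of photosensitive ganglion cells divided evenly, 5 higher and 5 lower, and Opn4, melanopsin, was at 0.183, 4.34 and 0.976 CPM against 1.57, 1.46 and 0.893 CPM.

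Mueller glia and microglial lists had mostly higher estimates in Kir2.1. In the Mueller glia list 18 of 20 genes had a higher estimate 3 against 2, with medians of 0.34 there and 0.15 3 against 3, which became -0.11 without Kir2.1 replicate 1. The sums overlapped, at 1847, 1750 and 2297 CPM in wild type and 2635, 1942 and 1701 CPM in Kir2.1. Of the 20 genes 1 was higher with an unadjusted p under 0.05, against 9.65% of all genes, and this gene, Rax, a homeobox factor of progenitors and Mueller glia, was also called, against 0.538%. Rax was at 39.7, 60.1 and 129 CPM in wild type and at 110.2, 111 and 104 CPM in Kir2.1 (log2 fold change 1.12, SE 0.22, adjusted p = 0.0408, 3 against 2 and 0.50, SE 0.33, 3 against 3). It overlaps an antisense gene. The 10 astrocyte genes divided evenly, 5 higher and 5 lower in both comparisons, with medians of -0.04 3 against 3 and 0.04 3 against 2. The member with the smallest p, Fabp7, a fatty acid-binding protein of glia, was at 17.6, 33.5 and 57.6 CPM against 68.4, 94.8 and 51.5 CPM (log2 fold change 1.48, SE 0.33, adjusted p = 0.0525). All 18 microglial genes had a higher estimate 3 against 2, with medians of 0.60 there and 0.38 3 against 3 and none called. Their highest sum, 558 CPM in Kir2.1 replicate 1, stood against 186 to 323 CPM in wild type and 187 and 304 CPM in the other Kir2.1 libraries. Without Kir2.1 replicate 1 the medians were 0.05 3 against 2 and -0.09 3 against 3. Vascular genes were also highest in Kir2.1 replicate 1, at 1536 CPM, against 777 to 1220 CPM in wild type, and their median of 0.16 3 against 2 was -0.35 without that library. Summed genes of erythrocytes (0.0851 to 20.8 CPM), lens (11.5 to 52.8 CPM) and pigment epithelium (10.9 to 41.3 CPM) stayed low, and the hemoglobin genes Hba-a1, Hba-a2 and Hbb-bt were at 0 in wild-type replicates 1 and 2. The log2 fold change medians of these 3 lists, in that order, were 6.76 (1 gene tested), 1.66 (8 tested) and 1.38 (8 tested) 3 against 2, and 2.19 (1 tested), -0.11 (12 tested) and 1.37 (8 tested) 3 against 3. In the pigment epithelium list 4 of 8 genes were higher 3 against 3 with an unadjusted p under 0.05, against 2.89% of all genes. The sum of that list was high in Kir2.1 replicate 2 alone, at 41.3 CPM against 10.9 to 17.4 CPM in the other 5 libraries, and without it the medians were -0.34 3 against 2 and -0.24 3 against 3.

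**Figure D3:**
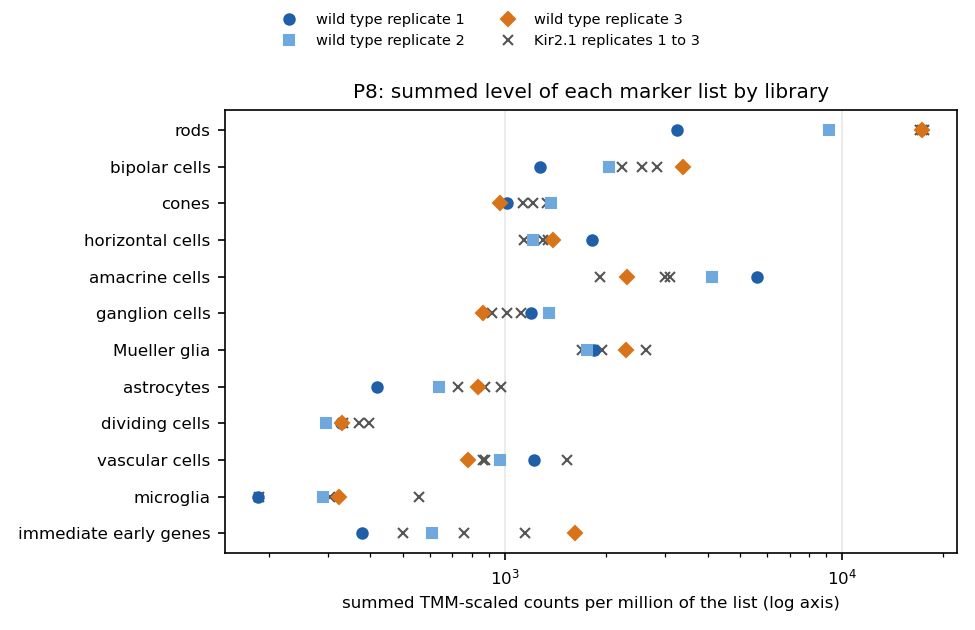
Summed CPM (log axis) of 12 gene lists in each P8 library, one row per list. Circles, squares and diamonds are wild-type replicates 1, 2 and 3, and crosses are the 3 Kir2.1 libraries. The rod sum runs from 3236 CPM in wild-type replicate 1 to 17490 CPM in Kir2.1 replicate 3, with wild-type replicate 3 among the Kir2.1 libraries, while the amacrine sum is highest in wild-type replicates 1 and 2.

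Genes of electrical excitability had mostly lower estimates in Kir2.1. In the same libraries the amacrine sum was lower and the rod sum higher than in wild-type replicates 1 and 2. The part of cell types in these estimates was not tested. Of 12 tested genes for voltage-gated sodium channels, 10 had a lower estimate 3 against 2, with a median of -0.75 that became -0.31 without wild-type replicate 1, and 3 fell, against 0.677% of all genes. The median 3 against 3 was -0.51. Scn3a, a pore subunit of developing neurons (chromosome 2, 65457118 to 65567627), was at 138, 107 and 75.8 CPM in wild type and at 66.3, 52.1 and 76.6 CPM in Kir2.1 (log2 fold change -0.91, SE 0.17, adjusted p = 0.0375). The auxiliary subunits Scn3b and Scn2b had log2 fold changes of -1.08 (SE 0.21) and -1.14 (SE 0.23). Scn8a, the most abundant of the list in CPM, was at 187, 187 and 188 CPM against 162, 187 and 202 CPM. Of 40 voltage-gated potassium channel genes, 35 had a lower estimate 3 against 2, with medians of -0.50 there and -0.37 3 against 3, and 3 of the 40 fell, Kcnip3, Kcna5 and Kcnc2, against the same 0.677%. Kcnc2, a channel of fast-spiking neurons, was at 22.6, 21.9 and 7.97 CPM against 12.1, 10.8 and 12.9 CPM, and Kcna5, a delayed rectifier, had a log2 fold change of -0.65 (SE 0.14, adjusted p = 0.0489).

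Of 17 calcium channel genes, 13 had a lower estimate 3 against 2, with medians of -0.54 there and -0.30 3 against 3, and 1 fell, against 0.677% of all genes. Cacna1e, the pore subunit of R-type channels, fell from 99.96 and 121 CPM to 51.8, 65.0 and 69.7 CPM, with wild-type replicate 3 at 53.7 CPM (log2 fold change -0.83, SE 0.16, adjusted p = 0.0423). Cacna2d4, an auxiliary subunit of photoreceptors, was among the 4 with a higher estimate, at 97.5, 266 and 480 CPM against 383, 488 and 437 CPM. Of 9 inward rectifier genes tested, Kcnj2 included, 8 had a lower estimate 3 against 2, with medians of -0.53 there and -0.15 3 against 3 and none called.

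Receptor and release genes also had mostly lower estimates. Of 24 glutamate receptor genes, 23 had a lower estimate in both comparisons, with medians of -0.43 3 against 3 and -0.66 3 against 2. In this list, as in the next 2, 1 gene fell, against 0.677% of all genes. Grin2b, an NMDA receptor subunit of young synapses (chromosome 6, 135713233 to 136173511), was at 294, 247 and 103 CPM in wild type and at 145, 92.8 and 149 CPM in Kir2.1, and fell 3 against 2 (log2 fold change -1.07, SE 0.18, adjusted p = 0.0351). The AMPA receptor subunits Gria1 and Gria2 were at 161, 150.4 and 55.6 CPM against 80.8, 55.4 and 105 CPM, and at 683, 558 and 377 CPM against 386, 315 and 413 CPM, and neither was called. Of 32 genes for GABA, glycine and acetylcholine receptors, 22 had a lower estimate 3 against 2, with medians of -0.48 there and -0.24 3 against 3, and Gabrb2 fell. Among 32 genes of presynaptic release, 11 lower and 7 higher had an unadjusted p under 0.05, against 10.2% and 9.65% of all genes, with medians of -0.31 3 against 2 and -0.20 3 against 3. Syn1, synapsin of synaptic vesicles, was at 198, 185 and 92.4 CPM against 116, 75.5 and 120.0 CPM (log2 fold change -0.88, SE 0.18, adjusted p = 0.0441), and it overlaps Araf. In Grin2b, Gria2 and Syn1 wild-type replicate 3 stood inside the Kir2.1 range.

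Axon guidance genes encode the molecules that steer optic axons. Among 31 semaphorin, plexin and neuropilin genes, 4 fell 3 against 2, against 0.677% of all genes, while the list median was -0.17 there and -0.03 3 against 3. Plxna1 and Plxna3, plexin receptors, were at 408, 347 and 203 CPM against 223, 194 and 250.1 CPM, and at 100.4, 86.4 and 56.5 CPM against 53.6, 54.9 and 54.4 CPM. Plxna3 was lower in every Kir2.1 library than in every wild-type library. Their log2 fold changes were -0.76 (SE 0.13, adjusted p = 0.0322) and -0.78 (SE 0.14, adjusted p = 0.0351). Nrp2, a semaphorin co-receptor, was at 237, 155 and 90.9 CPM against 99.2, 76.1 and 120 CPM, and Sema3a, a repulsive ligand, at 43.0, 43.7 and 15.2 CPM against 27.4, 19.2 and 22.1 CPM. Plxna2, the most abundant of the list in CPM, was at 498, 609 and 477 CPM against 575, 574 and 620 CPM. None of 21 Eph and ephrin genes was called, with medians of -0.31 3 against 3 and -0.37 3 against 2, where 8 of 21 were lower with an unadjusted p under 0.05, against 10.2% of all genes. None of 16 genes for Slit, Robo, netrin and DCC was called either, and Slit2 was at 446, 637 and 661 CPM against 372, 395 and 459 CPM. Of 37 genes for teneurins, latrophilins, cadherins and contactins, 29 had a lower estimate 3 against 2, with medians of -0.22 3 against 3 and -0.37 3 against 2. Of these 1 fell, against 0.677% of all genes. This was Tenm1, a teneurin, which went from 60.3 and 72.6 CPM to 39.3, 36.1 and 37.7 CPM, with wild-type replicate 3 at 33.8 CPM.

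Activity-regulated genes gave 1 call. Immediate early genes, which neurons switch on within minutes of firing and which tissue handling also induces, summed to 377, 609 and 1616 CPM in wild type and to 1150, 499 and 756 CPM in Kir2.1. The highest and the lowest sum both belonged to wild type. Their median was -0.29 3 against 3 and 0.65 3 against 2, so the direction turned on wild-type replicate 3. With a library left out or other settings, no filter apart, these medians ran from -0.74 to 0.65 and from 0.06 to 1.004. Btg2, an antiproliferative early gene, was the 1 gene of 17 tested that was called 3 against 2, against 0.538% of all genes (log2 fold change 1.39, SE 0.28, adjusted p = 0.0436, and 0.27, SE 0.49, 3 against 3), with 32.3 CPM in wild-type replicate 1, 59.6 CPM in replicate 2, 150, 100.3 and 112 CPM in Kir2.1 and 208 CPM in wild-type replicate 3. Fosb ranged from 6.99 CPM in Kir2.1 replicate 2 to 122 CPM in wild-type replicate 3. Fosl2 was the 1 of 18 that was lower with no overlap 3 against 3, against 5.11% of all genes. Late activity-regulated genes had medians of -0.23 3 against 3 and -0.40 3 against 2 with none called. Of 16, 2 were lower with no overlap 3 against 3, Homer1, a postsynaptic scaffold, and Pcsk1, a prohormone convertase, against the same 5.11%, and 3 were lower 3 against 2 with an unadjusted p under 0.05, against 10.2%. Fosl2, Homer1 and Pcsk1 are named after their values were seen. Scg2, a secretogranin of neuropeptide vesicles, was at 251, 235 and 55.6 CPM against 163, 67.3 and 148 CPM.

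**Figure D4:**
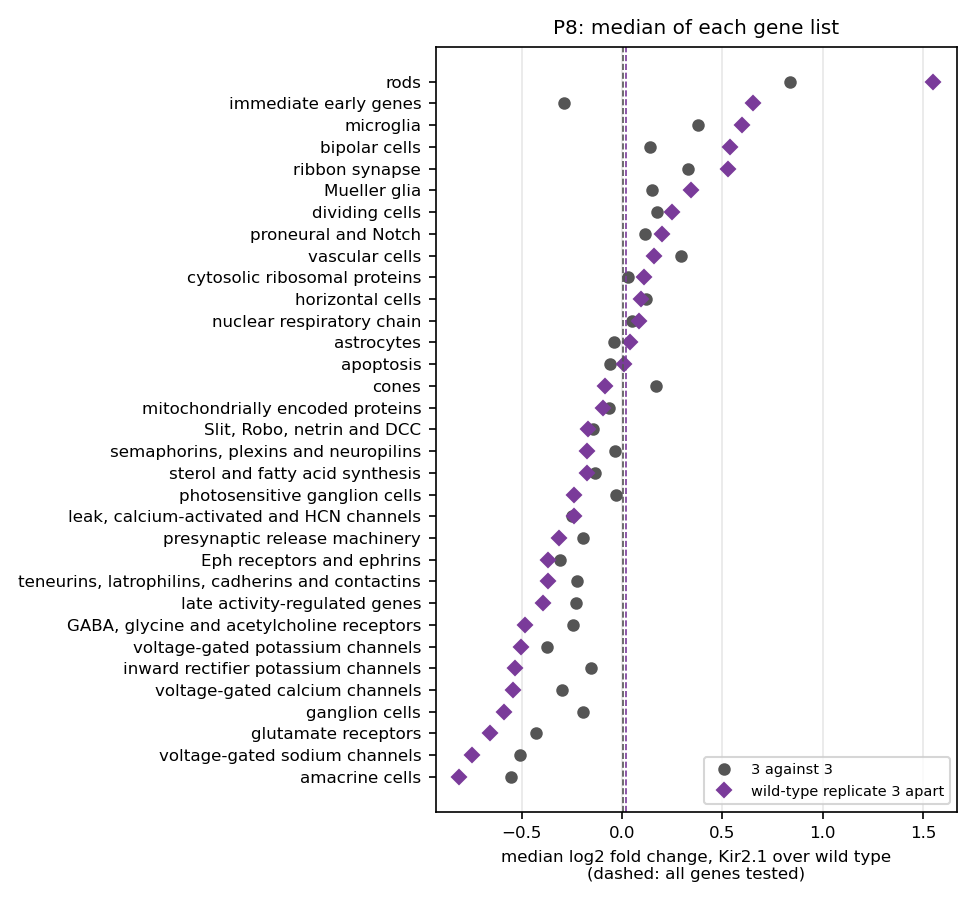
Median log2 fold change (x axis, Kir2.1 over wild type) of 33 gene lists, one row each, 3 against 3 (circles) and with wild-type replicate 3 apart (diamonds); dashed lines are the medians over all genes tested, 0.0034 and 0.018. Among the lists drawn, which leave out erythrocytes, lens, pigment epithelium and sex-linked genes, rods lie highest and amacrine cells lowest in both comparisons, and the immediate early genes change sign between them.

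Each wild-type library was also placed on the P4 to P8 change of the Kir2.1 group. The labels disagree on the age of the P8 libraries of both genotypes, those that set this scale included. In 3029 genes that differed between Kir2.1 P4 and Kir2.1 P8 by edgeR (1442 rising, 1587 falling), a position of 0 stands for the Kir2.1 P4 mean and 1 for the Kir2.1 P8 mean of log2 CPM. Over all 3029 genes, wild-type replicates 1, 2 and 3 of P8 had median positions of 0.783, 0.878 and 0.978. Over the rising genes they were at 0.563, 0.822 and 0.983, and over the falling genes at 0.917, 0.941 and 0.974. Wild-type replicate 1 thus lay farthest from the Kir2.1 P8 mean, mainly in the rising genes, and wild-type replicate 3 lay on it. The wild-type P4 libraries were at -0.0003 and 0.391. The Kir2.1 libraries chose these genes, which alone can place other libraries inside the interval, and no test was made.

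**Figure D5:**
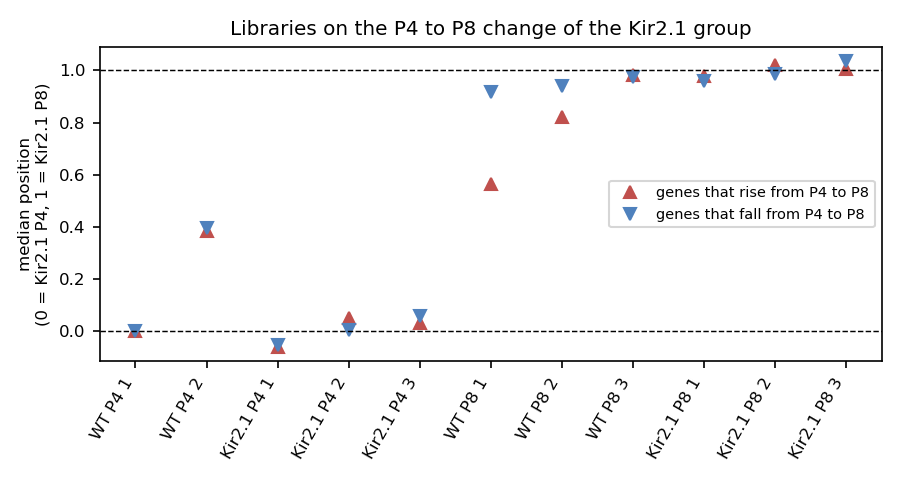
Median position of each library (y axis, 0 for the Kir2.1 P4 mean and 1 for the Kir2.1 P8 mean of log2 CPM) over the 1442 genes that rise (upward triangles) and the 1587 that fall (downward triangles) from P4 to P8 in Kir2.1. The rising genes of wild-type P8 replicate 1 are at 0.563 and those of replicate 3 at 0.983.

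The rod sum and the amacrine sum moved with the difference between wild-type replicates 1 and 2 and the other 4 P8 libraries. Xist and Kdm5d did so in part, since Kir2.1 replicate 2 stood with wild-type replicates 1 and 2 in both. Their part in the 219 calls was not tested. In the authors' deposited table for P8, 974 of 13396 genes with an adjusted p were called. Of the 219 genes called here 3 against 2, 208 were called there (95% of the genes called here and 21.4% of theirs), all 208 in the same direction. Which libraries the authors' deposited table used is not stated. Among 1804 sets of libraries compared on which genes had any count, the set nearest to it was the 5 P8 libraries without wild-type replicate 3, which differed in 1684 genes against 1982 for all 6, and no set matched it exactly.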

How the data were processed

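The authors deposited whole-number counts per Ensembl gene for each library and a table of their own P8 comparison. Per the submitters' processing notes, cutadapt 1.18, STAR 2.5.0c, HTSeq 0.6.1, SAMtools 1.9, bedtools 2.26.0, DESeq2 and mm10 were used, with roles not stated. The strand setting is not given in the sources used here, so a gene and an overlapping partner may share counts. Records that name no gene, 74.8% to 79.8% of all records in a P8 table, were left out. Per the file headers, the authors' deposited table holds a mean normalized count (a signal in their scaling), log2 fold changes and their standard errors, a test statistic (a score), and each p-value raw and adjusted.

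Symbols and GRCm38 coordinates came from GENCODE release 21 by Ensembl ID (46488 of 47069 genes). edgeR 4.0.16 in R 4.3.3 fitted quasi-likelihood models with 4 group means to all 11 libraries, or to 10 without wild-type P8 replicate 3, after filterByExpr by group and TMM scaling (factors 0.964 to 1.05), so the P4 libraries shared in the estimate of the spread. p-values were adjusted by Benjamini-Hochberg over every gene tested (threshold 0.05), and any adjusted p in the text is edgeR's unless DESeq2 is named. A list gene that passed the filter only through a group where it is high is not an independent sign of a difference. log2 CPM used a prior count of 0.5.

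Named protein-coding genes needed a mean of 5 CPM and no overlap of the groups compared: the 6 highest and 6 lowest folds at an unadjusted p under 0.05 (3 against 3), the 10 highest and lowest folds and the 5 highest and lowest statistics among the genes called (3 against 2). In each of 37 lists (816 of 817 genes matched) the 2 most abundant genes, the 2 with the smallest p and all called genes were eligible, as were the genes most extreme in 1 library. The members and lists were chosen with earlier results of these data known. Alternatives were DESeq2 1.42.0 on the P8 libraries, its size factors in edgeR and limma 3.58.1 voom. Further ones were other filters, edgeR on the P8 libraries alone, a replicate block, and each library left out. The test was tried on simulated counts with 200 changed genes. No pair of P8 libraries agreed within sampling noise (chi-square per gene at least 8.35). Some genes that the naming rule selects are not reported here.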

Additional observations from a re-analysis of the deposited data

How the results depend on the processing

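With all 3 wild-type libraries, 0 genes were called by edgeR, and this held with DESeq2 size factors, limma voom, a minimum mean of 1 CPM, the P8 libraries alone and without genes above 1% of a library. DESeq2 on the P8 libraries alone called 3 and edgeR with no low-count filter 447. Leaving out 1 library gave 0 to 219 calls, the 219 without wild-type replicate 3. With wild-type replicate 3 apart, the count of 219 became 1052 with DESeq2, 545 with limma voom, 1827 with no filter and 0 with the P8 libraries alone, and leaving out 1 further library gave 0 to 857. It was 283 with DESeq2 size factors, 252 with the 1 CPM minimum and 223 without genes above 1% of a library. Where 1 wild-type library remained, it was assumed to vary like the other groups. The cause was not tested. The median log2 fold change over all genes was 0.14 and 0.27 in the DESeq2 fits and 0.12 and 0.20 with no filter, which test more low genes.

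The replicate numbers showed no clear pairing of the libraries. Deviations of same-numbered wild-type and Kir2.1 P8 libraries correlated at 0.061, -0.017 and -0.058 across genes. Of 3 wild-type libraries, 2 correlated better with another number. Deviations from a mean of 3 libraries are bound to each other, so these values cannot show that pairing was absent. A replicate block within age gave 0 calls with all libraries and 747 with replicate 3 apart, 184 of them among the 219.

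With 1 library left out 3 against 3, the log2 fold change of Kcnj2 ran from -0.56 to 0.25, Btg2 from -0.15 to 1.39, Fosb from -1.74 to 1.28, Egr1 from -0.62 to 0.68 and Junb from -0.73 to 1.03, so each of these 5 genes changed sign. Fosb, Egr1 and Junb were at 0.46, 0.23 and 0.46 with limma voom, and Junb at 0.007 with the block. Junb overlaps Prdx2, with which it may share counts. List medians changed sign in 24 of 222 cases with a library left out and 10 of 296 under other settings 3 against 3, and in 14 of 185 and 5 of 296 with replicate 3 apart. The rod median ran from 0.39 to 1.55 and from 0.86 to 2.65, and the amacrine median from -0.81 to -0.24 and from -0.96 to -0.66, no filter apart. The bipolar median ran from -0.24 to 0.54 3 against 3. With replicate 3 apart the sodium channel median ran from -0.85 to -0.31, the ganglion cell median from -0.67 to -0.32, the immediate early median from 0.06 to 1.004 and the lens median from 0.59 to 5.38.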

Other observations

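Housekeeping groups differed little at P8. Of 43 nuclear genes of the respiratory chain, 27 had a higher estimate 3 against 2, with a median log2 fold change of 0.09 and none called by edgeR, and the 50 cytosolic ribosomal protein genes had a median of 0.11 with none called. Among 28 genes of sterol and fatty acid synthesis, 22 had a lower estimate and none was called. The members Srebf1 and Elovl6 stood apart from their groups in opposite directions. Srebf1, a lipogenic transcription factor, was at 49.4, 59.5 and 99.7 CPM in wild type and at 110, 92.2 and 103 CPM in Kir2.1, and Elovl6, a fatty acid elongase, at 79.8, 86.3 and 49.3 CPM against 56.2, 55.7 and 52.8 CPM. In both, wild-type replicate 3 stood with the Kir2.1 libraries. Srebf1 overlaps Rai1, with which it may share counts. Apoptosis genes had a median of 0.0075, and Bcl2l1, a survival gene, was at 57.0, 69.4 and 73.1 CPM against 87.4, 91.8 and 79.4 CPM.

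By gene length, the 2279 protein-coding genes over 100 kb had a median log2 fold change of -0.10 3 against 2 and -0.05 3 against 3. They gave 14 genes called higher (0.614%) and 45 called lower in Kir2.1 (1.97%) 3 against 2. Over all genes, noncoding ones included, these shares were 0.538% and 0.677%. Protein-coding genes of 10 to 30 kb gave 0.525% higher and 0.547% lower, and those of 30 to 100 kb 0.784% in each direction. The 3432 genes of up to 10 kb had medians of 0.02 and -0.02 and gave 19 called higher (0.554%) and 12 called lower (0.35%). Single libraries also held extreme genes. In wild-type replicate 3 the heat-shock genes Hspa1a and Hspa1b were at 1.95 and 1.14 CPM, against 42.2 to 128 and 38.4 to 147 CPM in the other P8 libraries. Pde11a, a phosphodiesterase, was at 0.895 CPM there and at 6.68 to 33.2 CPM elsewhere, and Wnt2b at 0.244 CPM against 2.09 to 14.5 CPM. In Kir2.1 replicate 2 the models Gm10800 and Gm10801 were at 427 and 57.3 CPM, against 32.9 to 61.9 and 3.04 to 8.89 CPM elsewhere. Antisense, lincRNA and pseudogene classes had median log2 CPM differences of 0.40, 0.37 and 0.35 between this library and the mean of the other 5, and protein-coding genes of 0.0014. In the same library Zfp36, an early response gene, was at 2.61 CPM, against 6.21 to 52.2 CPM elsewhere.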
